A study of Mus musculus and Rattus norvegicus with 4 samples.

Results

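MEF2A ChIP-exo peaks were examined at 41 genes of calcium handling and calcineurin signalling in C2C12, a mouse myoblast line that fuses into skeletal myotubes, after 48 h in differentiation medium with 2% horse serum. The 41 genes are a list named by role: the release channels, pumps and store proteins of the sarcoplasmic reticulum, the calcium channels and exchanger of the surface membrane, store-operated entry, the CaMKII kinases, and calcineurin with its regulators and NFAT targets. They were found, all 41, among the 21887 protein-coding genes of the mouse RefSeq table. ChIP-exo is chromatin immunoprecipitation in which an exonuclease trims the bound DNA to the edge of the protein footprint, and MEF2A is one of the MEF2 transcription factors that drive muscle genes. The series held 4 libraries, with MEF2A and normal rabbit IgG immunoprecipitated from C2C12 cells and from primary neonatal rat cardiomyocytes. The peak list of the C2C12 MEF2A library is used here. Each group had 1 library, so no value below has a replicate and none was tested. A peak list carries no expression, so the state of differentiation of the cells was not checked against marker genes.

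In skeletal muscle, a voltage-sensing calcium channel in the surface membrane opens ryanodine receptors in the sarcoplasmic reticulum, and calcium flows from the store onto the myofilaments. SERCA pumps return it to the store, where calsequestrin buffers it. Calcium also acts through calmodulin on the kinase CaMKII and the phosphatase calcineurin. Calcineurin dephosphorylates NFAT transcription factors, and both enzymes are known to raise MEF2 activity, CaMKII by driving class IIa histone deacetylases off MEF2.

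MEF2A peaks were assigned to 10 of the 41 genes, and 7.73% of all 21887 protein-coding genes had a peak by the same rule. The 10 were Itpr1, Trdn, Jph2, Cacna2d1, Cacnb2, Orai1, Camk2b, Camk2d, Rcan1 and Rcan2. Among the 41 genes, no peak was assigned to a ryanodine receptor, a SERCA pump or its inhibitors, or an NFAT gene. Nor was one assigned to the listed pore subunits of voltage-gated calcium channels, Cacna1s and Cacna1c. The listed catalytic and regulatory subunits of calcineurin had none either. Each peak had been given to the protein-coding gene with the nearest span, up to 100 kb away, and counted as at distance 0 inside a span. The 10 genes were 24.4% of the list (exact binomial 95% interval 12.4 to 40.3%, counting error only). That was 3.16 times the share of all protein-coding genes. With peaks scoring 100 or more it was 12.2%, against 3.47% of all genes, and with peaks scoring 200 or more 2.44%, against 1.53%. Distance limits of 10, 50 and 250 kb gave 24.4, 24.4 and 26.8%, against 5.75, 7.13 and 8.35% of all genes. Measured to the ends of genes in place of their spans, it was 26.8%, against 7.42%, and with all annotated genes competing for peaks 22.0%, against 5.96%.

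The calcium genes are long, and the ratio was smaller once length was taken into account in part. The stretch of genome from which peaks go to a gene, its territory, had a median of 86.2 kb over the 41 genes and 45.8 kb over all protein-coding genes. With all genes divided into 10 classes of territory length, the share with a peak was larger in each longer class, from 1.10% in the shortest to 26.7% in the longest. Of the 41 calcium genes 14 fell in the longest class, and 6 of those 14 (42.9%) had a peak. That class runs from 201 to 2510 kb with a median of 278 kb. All of the 14 but Nfatc2, at 239 kb, lie above that median, up to 691 kb for Ryr2. Length was therefore not fully matched in this class. Giving each calcium gene the share of its class set 13.3%, or 5.45 genes, beside the observed 24.4% and 10 genes, a ratio of 1.84. The interval of the observed share includes 13.3%. With peaks scoring 100 or more, the observed 12.2% stood against 6.34% from the classes. With peaks scoring 200 or more, 2.44% was observed against 2.80% from the classes, a ratio of 0.872. That share is 1 gene, Trdn, so the ratio below 1 carries little information. For distance limits of 10, 50 and 250 kb the classes gave 12.8, 13.7 and 14.0%, beside 24.4, 24.4 and 26.8% observed. Measured to the ends of genes, the classes gave 11.7% beside 26.8%, and with all annotated genes competing 11.4% beside 22.0%. Per megabase of territory, the calcium genes held 1.72 peaks and all protein-coding genes 1.21.

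**Figure D1:**
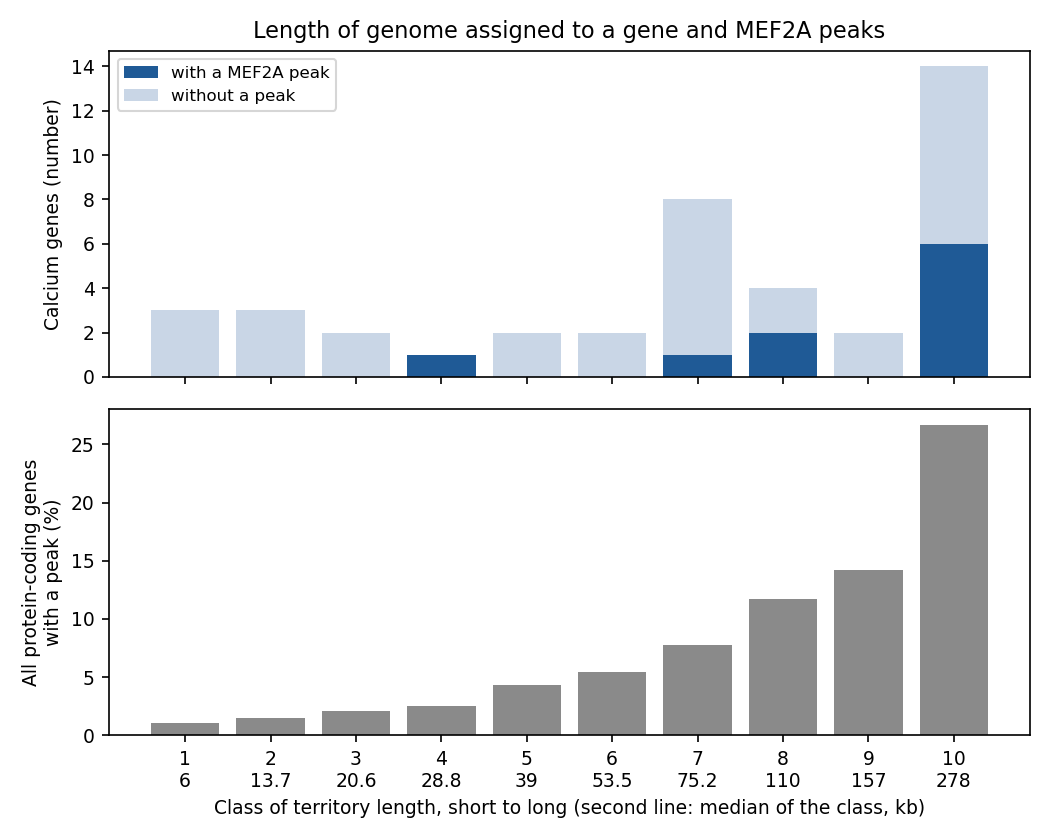
The 10 classes of territory length run from short to long on the x axis, with the median length of each class in kb. The upper bars count calcium genes with and without a MEF2A peak, and the lower bars give the percentage of all protein-coding genes with a peak, which reaches 26.7% in the longest class, where 6 of 14 calcium genes had a peak.

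The 14 peaks of the calcium genes included 4 of rank 347 to 668 in this list of 2797 and none among its highest-scoring peaks. The deposited score, the peak caller's own value and higher for stronger peaks, ranged from 52.2 to 236 with a median of 66.35, beside a range of 50.1 to 3100 and a median of 77.0 for all 2797 peaks. Of the 14, 6 scored above the median of all peaks, 5 scored 100 or more (35.7%, against 36.8% of all peaks) and 1 scored 200 or more (7.14%, against 15.2%). None reached the 90th percentile of the list, a score of 278. Inside the span of their gene lay 11 of the 14 (78.6%), against 57.1% of all assigned peaks. These shares were not matched for span length. The calcium genes with a peak had a median span of 245 kb, against 62.2 kb for all protein-coding genes with one. The peaks were 102 to 330 bp wide with a median of 143.5 bp, against 144 bp over all peaks.

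**Figure D2:**
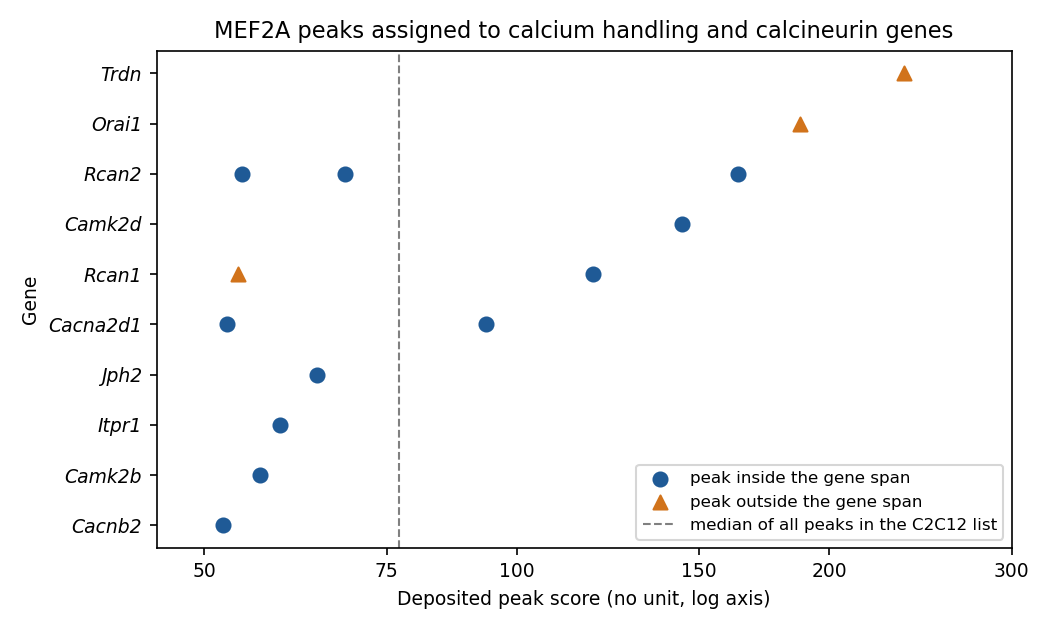
Each point is a MEF2A peak assigned to a calcium gene, with the deposited score on a log axis and genes ordered by their highest-scoring peak. Circles lie inside the gene span and triangles outside it, and the dashed line is the median of all peaks in the list, 77.0. Trdn and Orai1, whose peaks lie outside the gene, score highest.

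Among the release channels and their regulators, 1 of 6 genes had a peak, close to the 0.975 genes expected from the territory classes. Itpr1, which encodes an inositol trisphosphate receptor (chromosome 6, 108213083 to 108551116, mm10), held a peak of 116 bp at 108456266 to 108456381 with a score of 59.2, rank 2093 of 2797. The ryanodine receptors are the release channels of excitation-contraction coupling, and none had a peak within 100 kb. Ryr1, the skeletal form, was 109 kb from the nearest peak (score 125, assigned to Kcnk6), Ryr3 was 187 kb and Ryr2, the cardiac form, 278 kb from theirs. Ryr2 and Ryr3 were among the longest territories of the list, 691 and 620 kb, and held no peak. Fkbp1a and Fkbp1b, which encode immunophilins that bind ryanodine receptors, stood 1344 and 415 kb from a peak.

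None of the 4 genes of calcium pumps and their inhibitors was assigned a peak. Atp2a1 and Atp2a2, encoding the fast-muscle and the slow-muscle and cardiac SERCA pumps, each had weak peaks nearby that went to nearer genes. A peak of score 58.1 lay 17.7 kb from Atp2a1 and 4.12 kb from Sh2b1. Peaks of scores 56.5 and 72.0 lay 13.7 and 83.4 kb from Atp2a2, inside Anapc7 and Ift81. Pln and Sln, which encode the SERCA inhibitors phospholamban and sarcolipin, were among the genes farthest from any peak, at 1301 and 2412 kb. The share expected from the territory classes of these genes was 4.10%, or 0.164 genes, so a count of 0 of 4 carries little information.

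Of 9 store and junction genes, 2 had a peak (1.11 expected from the territory classes), and Trdn had the strongest of all 14. The expected share of 12.4% lies inside the exact binomial interval of the observed share, 2.81 to 60.0%. Trdn encodes triadin, which links calsequestrin to the ryanodine receptor (chromosome 10, 33083483 to 33476709). Its peak of 330 bp at 33073210 to 33073539 scored 236, rank 347, higher than 87.6% of all peaks, and lay 9.94 kb outside the lower-coordinate end of the span. The next protein-coding gene, Nkain2, was 176 kb away and the next peak over 1 Mb away, so this was an isolated peak whose nearest gene by a wide margin was Trdn. Jph2, encoding the junctophilin that holds the surface and reticulum membranes together in heart and muscle (chromosome 2, 163336242 to 163398049, minus strand), held a peak of 128 bp at 163392482 to 163392609. That peak scored 64.3, rank 1820, and lay 5.36 kb downstream of the annotated start.

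The other 7 store and junction genes had no assigned peak, though strong peaks of other genes lay within 100 kb of some. Casq1, encoding skeletal calsequestrin, was 1 of the 7. Jsrp1, encoding a junctional reticulum protein, was 56.4 kb from the peak of rank 5 in the list (score 2172), which lay 3.03 kb from Dot1l. Asph, which encodes aspartate beta-hydroxylase and the junctional protein junctin, was 76.8 and 76.5 kb from adjacent peaks of scores 79.0 and 146 inside Clvs1. Hrc, Casq2, Srl and Jph1 had no peak within 100 kb, with distances of 172, 218, 568 and 714 kb. Which gene such peaks act on, if any, cannot be read from position.

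Among the surface channel and exchanger genes 2 of 7 had a peak (1.18 expected from the territory classes), both encoding accessory subunits. Here too the exact binomial interval, 3.67 to 71.0%, includes the expected 16.8%. Cacna2d1, for the alpha-2-delta subunit (chromosome 5, 15934264 to 16374511, plus strand), held 2 peaks. The stronger, at 15966966 to 15967124, scored 93.4 and lay 32.3 kb downstream of the annotated start, and the weaker, at 16267423 to 16267524, scored 52.55 and lay 333 kb downstream. Cacnb2, encoding the beta subunit best known from heart (chromosome 2, 14603861 to 14988811, plus strand), held a peak at 14612728 to 14612845, 8.42 kb downstream of its first start. With a score of 52.2 and rank 2702 this was the weakest of the 14 peaks. Cacnb1, the beta subunit of the skeletal channel, had no assigned peak. A peak of score 73.2 lay 12.96 kb from Cacnb1 but 0.488 kb from its neighbour Stac2, whose protein belongs to a family of calcium channel adaptors.

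The pore subunits Cacna1s, of the skeletal channel, and Cacna1c, of the cardiac channel, were 258 and 160 kb from the nearest peak. Cacna1c has a territory of 623 kb and still held none. Stac3, an adaptor required for skeletal excitation-contraction coupling, stood 565 kb from a peak. Slc8a1, the sodium-calcium exchanger, stood 118 kb from a peak of score 54.4 that had no protein-coding span within 100 kb.

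Of the store-operated entry genes, Orai1 had a peak and Stim1 did not, 1 of 2 genes against 0.167 expected from the territory classes. With 2 genes the exact binomial interval, 1.26 to 98.7%, spans nearly the whole range and includes the expected 8.36%. Orai1 encodes the pore of the channel that opens when stores are depleted (chromosome 5, 123015074 to 123030452, plus strand). Its peak of 294 bp at 123009156 to 123009449 scored 187, rank 472, and lay 5.62 kb upstream of the annotated start. The next protein-coding gene, Kdm2b, was 19.9 kb from the peak. The peak lay inside the span of a lncRNA gene, Gm2479, so Orai1 lost it when all annotated genes competed for peaks. Orai1 was the shortest of the 10 genes with a peak, with a span of 15.4 kb and a territory of 29.8 kb, in a class where 2.56% of all genes had one. Stim1, the sensor of store calcium that opens Orai1, was 407 kb from its nearest peak.

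Peaks were assigned to 2 of the 4 CaMKII genes, against 0.539 genes expected from the territory classes. The exact binomial interval of this share, 6.76 to 93.2%, includes the expected 13.5%, so so few genes show no difference from expectation. Camk2d, encoding the delta chain (chromosome 3, 126595487 to 126846326, plus strand), held a peak of 172 bp at 126661069 to 126661240 that scored 144, rank 668, and lay 64.1 kb downstream of the annotated start. Camk2b, the beta chain (chromosome 11, 5969629 to 6066357, minus strand), held a weaker peak at 6000599 to 6000722 with a score of 56.6, rank 2290, and 65.0 kb downstream of its start. Camk2g had weak peaks at 32.7 and 70.9 kb (scores 52.3 and 66.8) that went to Chchd1 and Synpo2l. Camk2a, best known from neurons, was 169 kb from a peak.

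In the calcineurin group, both genes of regulators had several peaks and none of the 3 genes of the enzyme had any. That gave 2 of 5 genes against 0.783 expected from the territory classes. Its exact binomial interval, 5.27 to 85.3%, includes the expected 15.7%. Rcan1 and Rcan2 encode calcipressins, which bind calcineurin and inhibit it, and Rcan1 is itself induced by calcineurin through NFAT at an internal promoter. Rcan1 (chromosome 16, 92391951 to 92466169, minus strand) had 2 peaks. The stronger, at 92398864 to 92399025, scored 119, rank 858, and lay 1053 bp downstream of the internal start site, at 92400078. The weaker, at 92472170 to 92472288, scored 53.9, rank 2588, and lay 6001 bp upstream of the outer start site, at 92466169. Of the 12 calcium gene peaks whose gene had an annotated start, the Rcan1 peak at 1053 bp was the nearest to a start, and it was the only peak within 2 kb of a start. Over all peaks, assigned or not, 6.29% lay within 2 kb of an annotated start of a protein-coding gene. That start need not belong to the assigned gene, so the 2 measures differ.

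Rcan2 (chromosome 17, 43801352 to 44039516, plus strand) had 3 peaks, the most of any of the 41 genes. The peak at 44031111 to 44031378 scored 164, rank 565. A peak of score 68.4 at 44026473 to 44026723 lay 4.39 kb from it, and a peak of score 54.4 lay at 43901264 to 43901380. The first and second of these stood at 96.5% and 94.6% of the span counted from its 5′ end, and the third at 42.0%. Ppp3ca and Ppp3cb, which encode catalytic subunits of calcineurin, were 531 and 117 kb from their nearest peaks, and Ppp3r1, the regulatory subunit, 251 kb. Genes with 2 or more peaks were Rcan1, Rcan2 and Cacna2d1, 7.32% of the 41 genes, against 1.96% of all protein-coding genes. These shares were not matched for length. The territories of the named genes were 106, 283 and 630 kb, against a median of 45.8 kb over all protein-coding genes.

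The NFAT genes, whose proteins are dephosphorylated by calcineurin, were the only one of the 8 role groups with no member within 100 kb of a peak. Over all protein-coding genes, 22% had any peak within 100 kb. Nfatc3, Nfatc2, Nfatc1 and Nfatc4 were 269, 403, 706 and 1597 kb from the nearest peak. An assigned peak was held by 0 of these 4 genes, against 0.529 expected from the territory classes. The exact binomial 95% interval of that share runs to 60.2%, so these 4 genes say nothing of a difference from the calcineurin regulators.

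**Figure D3:**
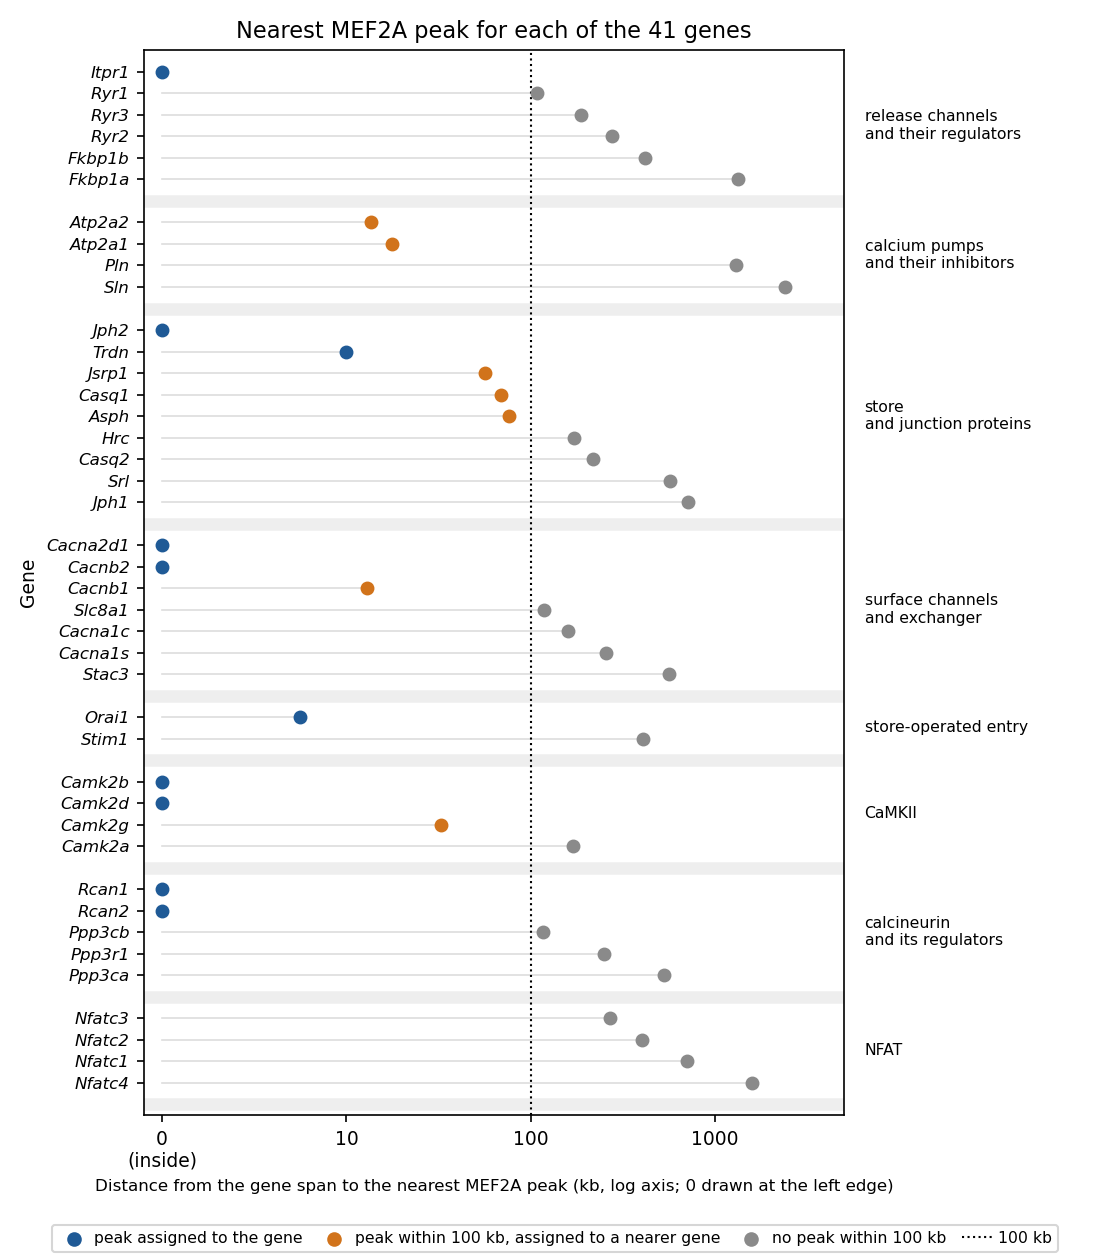
Distance from each of the 41 gene spans to the nearest MEF2A peak in kb on a log axis, with genes grouped by role and distances of 0 drawn at the left edge. Blue points are the 10 genes with an assigned peak, orange points the 7 genes whose peak within 100 kb belonged to a nearer gene, and grey points the 24 genes with none within 100 kb. All 4 NFAT genes are grey.

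Counted without the competition between neighbours, 17 of the 41 genes (41.5%) had a peak somewhere within 100 kb, against 22% of all protein-coding genes and 28.3% from the territory classes of this count. The 7 genes this adds are Atp2a1, Atp2a2, Casq1, Asph, Jsrp1, Cacnb1 and Camk2g. The remaining 24 genes (58.5%) were 109 to 2412 kb from a peak, with a median of 341 kb. Over the whole list the median distance to the nearest peak was 160 kb, against 354 kb over all protein-coding genes. The 4 genes farther than 1 Mb, Fkbp1a, Pln, Nfatc4 and Sln, were 9.76% of the list, against 20.1% of all genes. Neither this share nor the median distance was matched for gene length.

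The 10 genes with a peak were longer than the others. Their spans had a median of 245 kb, against 60.1 kb for the 31 genes without a peak. Genes with and without a peak differed in the same way over the whole genome, with medians of 62.2 and 15.8 kb. The 14 peaks stood 73.1 kb or more from the next peak of the list, apart from the Rcan2 peaks 4.39 kb apart.

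**Figure D4:**
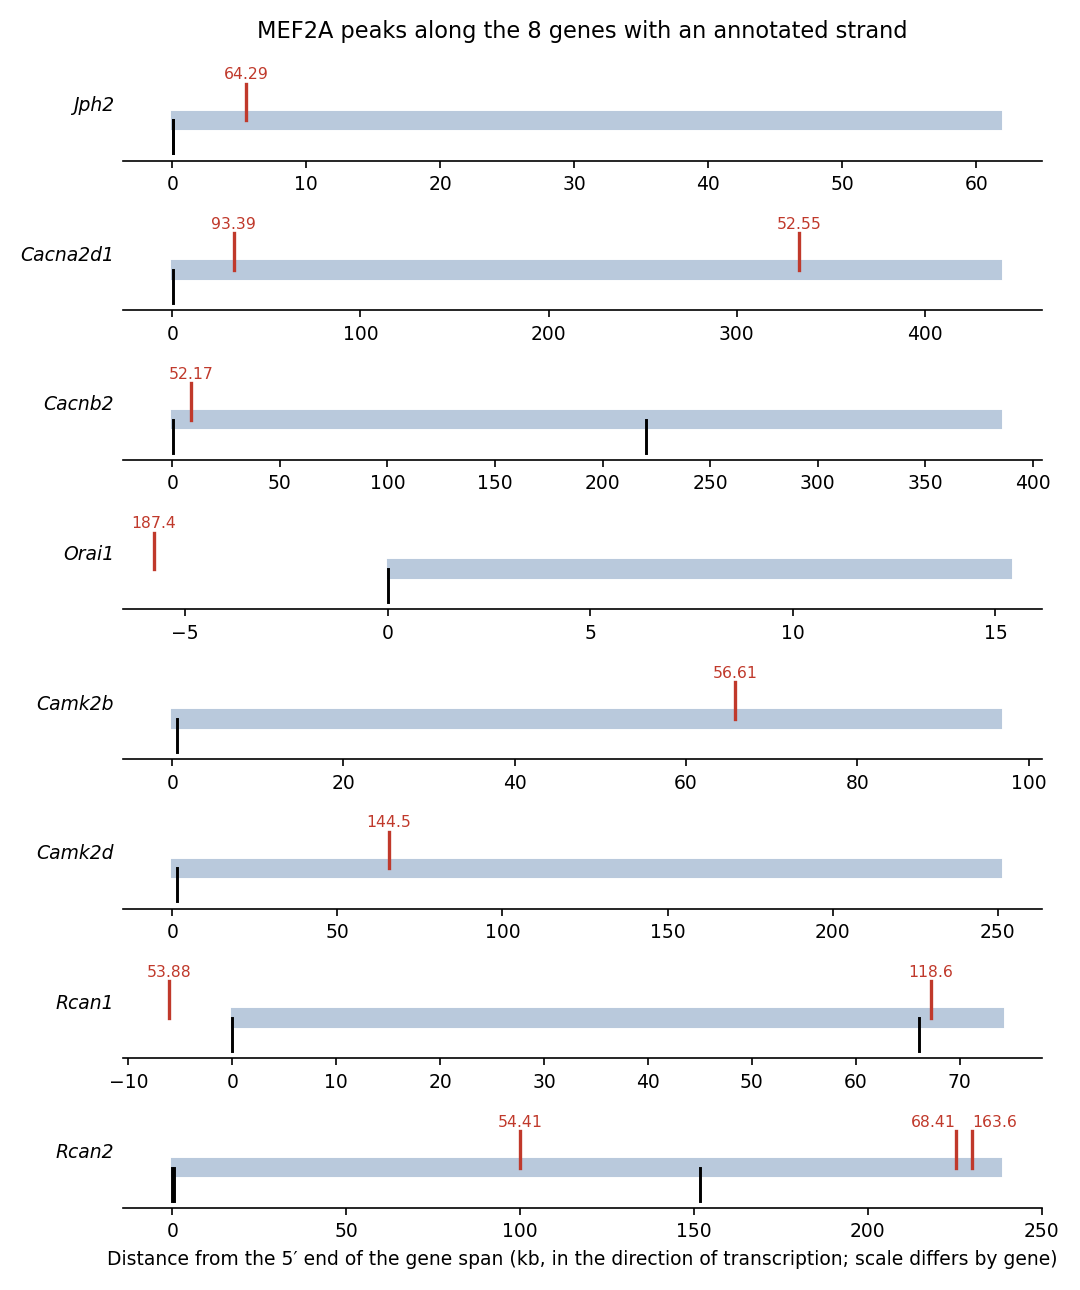
Each bar is the span of a gene drawn to its own scale, in kb from the 5′ end in the direction of transcription, for the 8 genes with a peak and an annotated start. Black ticks are annotated start sites and red ticks are MEF2A peaks with their deposited scores. The stronger Rcan1 peak lies just inside the internal start, and the Orai1 peak and the weaker Rcan1 peak lie upstream of the gene.

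The promoter windows of Rcan1, Orai1 and Jph2 are shown because these genes had peaks 1053 to 6001 bp from these starts. No peak of the 14 overlapped a window of its gene, so the bound sequence itself is not shown. The windows come from RefSeq (GRCm38.p6, the assembly behind mm10) and run from 250 bases before a start to 50 after it, written 5′ to 3′ on the strand of the gene. A window was given for 27 of the 41 genes, 37 windows in all. Capitals in the first 4 mark the core that NFAT proteins bind, GGAAA or TTTCC on the other strand. In order they are the internal Rcan1 start (chr16:92400029-92400328, minus strand), the outer Rcan1 start (chr16:92466120-92466419, minus strand), the Orai1 start (chr5:123014824-123015123, plus strand) and the Jph2 start nearer to its peak (chr2:163397924-163398223, minus strand).
Rcan1 internal start: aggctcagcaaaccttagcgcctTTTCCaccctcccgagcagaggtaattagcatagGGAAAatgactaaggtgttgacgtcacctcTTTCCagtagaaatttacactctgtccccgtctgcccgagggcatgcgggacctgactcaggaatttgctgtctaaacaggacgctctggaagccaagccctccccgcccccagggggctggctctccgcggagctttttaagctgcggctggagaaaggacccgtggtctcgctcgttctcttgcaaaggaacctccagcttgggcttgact
Rcan1 outer start: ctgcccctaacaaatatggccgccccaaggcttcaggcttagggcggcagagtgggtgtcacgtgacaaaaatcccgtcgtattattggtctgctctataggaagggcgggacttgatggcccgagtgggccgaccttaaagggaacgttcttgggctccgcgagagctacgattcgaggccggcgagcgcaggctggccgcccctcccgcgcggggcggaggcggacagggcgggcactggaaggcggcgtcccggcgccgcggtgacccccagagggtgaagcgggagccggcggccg
Orai1: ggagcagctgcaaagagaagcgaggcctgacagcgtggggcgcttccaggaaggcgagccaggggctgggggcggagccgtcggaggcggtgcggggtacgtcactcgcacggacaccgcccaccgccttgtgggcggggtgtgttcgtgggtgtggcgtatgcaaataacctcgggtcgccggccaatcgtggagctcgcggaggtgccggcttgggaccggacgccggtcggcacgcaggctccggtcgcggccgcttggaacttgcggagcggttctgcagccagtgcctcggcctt
Jph2: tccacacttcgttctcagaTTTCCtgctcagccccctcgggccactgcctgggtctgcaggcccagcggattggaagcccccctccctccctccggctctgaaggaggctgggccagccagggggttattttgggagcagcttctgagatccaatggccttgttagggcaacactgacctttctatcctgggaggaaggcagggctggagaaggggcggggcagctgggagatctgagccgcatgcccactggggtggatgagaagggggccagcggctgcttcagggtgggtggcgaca

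The window of the internal Rcan1 start, 1053 bp from the peak of score 119, held 3 NFAT cores, at 227, 193 and 163 bases before the start, and the window of the outer start none. At least 3 cores were held by 4 of the 37 windows of the calcium genes (10.8%) and by 9.42% of all 32851 windows, and at least 1 core by 54.1% and 61.3%. The AP-1 motif TGANTCA, a sequence that reads the same on both strands apart from its middle base, was found in 2 of the 37 windows (5.41%), against 7.81% of all windows. They lay 110 bases before the internal Rcan1 start and 25 bases before an internal Rcan2 start. That Rcan2 start was 51.6 kb from the nearest Rcan2 peak. The E-box CANNTG, the motif of MyoD-type factors, was in 70.3% of the calcium gene windows and 72.3% of all windows. All motifs were searched on both strands and counted separately, so that matches to different motifs could overlap, and the NFAT motif was chosen after the Rcan1 peak had been seen.

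The MEF2 consensus, searched on both strands, was found in 1 of the 37 windows (2.70%), against 3.19% of all windows. It belonged to Casq2, encoding cardiac calsequestrin, whose nearest peak was 218 kb away. The match began 69 bases before the start and is in capitals in the window at chr3:102086165-102086464, plus strand. It is shown as the only window of the 37 with a MEF2 match. No peak of the 14 overlapped a window of its gene, so the sequences of the peaks were not searched for this motif.
Casq2: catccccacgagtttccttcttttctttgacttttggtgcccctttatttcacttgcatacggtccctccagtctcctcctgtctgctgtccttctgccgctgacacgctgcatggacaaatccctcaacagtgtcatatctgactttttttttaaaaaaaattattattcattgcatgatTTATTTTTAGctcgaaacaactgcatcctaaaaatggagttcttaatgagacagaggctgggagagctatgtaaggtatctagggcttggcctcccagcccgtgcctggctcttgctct

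No motif in a window says that the letters are absent there, and nothing about binding elsewhere in the gene. The list gives only peaks above the caller's threshold, so weaker binding at Casq2 or at any of the 31 genes without a peak would not be seen.

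Other genes of calcium signalling were read from a second list of 69 genes, and 8 of them had a peak (11.6%, against 7.73% of all protein-coding genes and 10.6% expected from their territory classes). Atp2b1, a calcium pump of the plasma membrane, held the strongest, with a score of 286 (rank 263), inside its span. Cacng6, a gamma subunit of muscle calcium channels, had a peak of score 255 at 11.3 kb, with Cacng8 as the next gene at 30.7 kb. Cabin1, which encodes an inhibitor of calcineurin and a repressor of MEF2, held peaks of scores 172 and 94.2. Myoz2, which encodes calsarcin, a calcineurin-binding protein of the Z-disc, had 3 peaks with scores of 76.9, 63.7 and 51.5, and the second lay 926 bp downstream of the annotated start.

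The others were Camk1g, a calmodulin-dependent kinase gene with a peak of score 136 at 43.9 kb, Stac2 (73.2, at 0.488 kb), Cacnb4, another beta subunit (66.2, inside), and Sri, encoding the calcium-binding protein sorcin (53.9, inside). By role, 3 of 11 further channel and adaptor genes had a peak (1.5 expected from the territory classes), and 2 of 9 further calcineurin and NFAT genes (0.517 expected). Their exact binomial intervals, 6.02 to 61.0% and 2.81 to 60.0%, include the expected 13.6 and 5.75%. Further release channels and couplers gave 1 of 10 (1.07 expected), pumps and exchangers 1 of 10 (1.24 expected) and calcium-dependent kinases 1 of 8 (0.863 expected). None had a peak among 8 genes of calcium-binding proteins and chaperones, 7 of mitochondrial calcium uptake, and 6 of store-operated and TRPC channels. For those 3 groups, 0.385, 0.935 and 0.766 genes were expected from the territory classes, so a count of 0 lies close to them.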

How the data were processed

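ChIP-exo libraries were prepared from the sonicated nuclei of C2C12 cells with an antibody to MEF2A and selected by size, per the labels' protocols. CASAVA 1.7.0, BWA 0.5.9, Picard, SAMtools, MACS 1.4.2 and the builds mm10 and rn5 are named, with no settings, per the submitters' processing notes. The authors deposited 1 peak list per MEF2A library, with a position and a score for each peak. The file states no scale for the score, whose lowest value was 50.08, so it serves here only to rank, describe and filter peaks within the list. Read counts were not given and depth is unknown. Whether the IgG library served as control during peak calling is not stated. Rat peaks were not used, for want of a rat annotation.

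Peak starts, counted from 0 in the file, are printed counting from 1. Each peak went to the nearest protein-coding span (RefSeq, GRCm38.p6, placed chromosomes) within 100 kb, and a peak inside several spans counted for each. This took 2306 of 2797 peaks to 1691 genes. Spans do not separate exons, introns and UTRs. Start sites and strands came from the RefSeq promoter windows. Territory was computed from the same assignment rule, and the expected share is the mean over the listed genes of the share in their territory class. The peak near Casq1 is not reported here. No test was run. The members and lists were chosen with earlier results of these data known. All 41 genes are named, and of the second list those with a peak, with Ppp3cc, Ppp3r2, Rcan3 and Nfat5 of those without. Assignment was checked on simulated peaks that started inside known genes, and territories against a grid of points along a single chromosome. Alternatives were a higher score, merging of peaks under 1 kb apart, other distance limits, the nearest gene end, all annotated genes, and every gene within 100 kb. Tables were handled with pandas 2.3.3 and numpy 2.4.6 in Python 3.11.15, intervals were computed with scipy 1.17.1, and matplotlib 3.10.9 drew the figures.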

Additional observations from a re-analysis of the deposited data

How the results depend on the processing

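The set of genes with a peak depended on the score threshold and on how neighbours share peaks. At a score of 100 or more, 5 genes of the list and 5 peaks were left (Trdn, Orai1, Rcan2, Camk2d and Rcan1), with 4 genes of the second list. At 200 or more, 1 gene (Trdn), 1 peak and 1 of the 8 role groups were left, with 2 genes of the second list, and the ratio to the territory classes turned to 0.872, below 1, with fewer peaks entering by construction. With every protein-coding gene within 100 kb counted, 17 genes, 24 assignments and 16 genes of the second list were reached. At 10 or 50 kb, or with merged peaks, the same 10 genes had a peak. A limit of 250 kb added Slc8a1, the nearest gene end added Asph, and assignment among all annotated genes took the Orai1 peak away. Of the counts by role group and of peaks by gene, 131 of 162 alternative values stayed within 1.5 times the main value. These include counts of 0 that stayed 0, for NFAT at every setting and for the pumps at most settings. Most of the values that moved did so at the higher score limits. No paired analysis was possible because there is only 1 library in a group. Without replicates or depth, it is unknown which of the weaker peaks would be found again.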

Other observations

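Noncoding genes were set beside the same 14 peaks. The Orai1 peak (score 187) lay inside the span of Gm2479, a lncRNA gene, while it was 5.62 kb from Orai1. The Itpr1 peak (score 59.2) lay inside both Itpr1 and the lncRNA gene Gm35165. For the other 12 peaks the protein-coding gene was nearer than any annotated noncoding gene, with Camk2d (Gm15551 at 6.09 kb) and the weaker Rcan1 peak (Gm46555 at 6.34 kb, Rcan1 at 6001 bp) the closest cases. These genes were chosen after their values were seen.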
